A study of Mus musculus with 5 samples.

Results

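Tmbim4, Nphp4, Prkcsh, Blmh and Nrg2 are 5 of the 10291 genes listed in the count tables of sorted mouse CD4 T cells. They were selected on these values, for a higher level in light-treated than in control lymph node cells and for their level in colon, so what follows on that contrast is a description and carries no test. The study measured CD4 T cells from the colon and the lymph node, with and without 980 nm laser light, and its design text speaks of autoimmune colitis. There are 4 libraries: a control and a light library of colon cells, and a control and a light library of lymph node cells, labelled mLN. For the light libraries the mice received sessions of 5 min every 2 days on a spot of 4 cm2, with a laser power of 1.22 W and a duty of 80%. Controls are labelled only as controls, and whether they had a sham exposure or colitis, how many mice were pooled, and their strain, age and sex are not stated in the labels.

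The 5 proteins belong to different systems of the cell. Tmbim4 is a membrane protein of the Bax inhibitor family, whose members act on calcium handling and cell death. Prkcsh is the beta subunit of glucosidase II, which trims glucose from newly made glycoproteins in the endoplasmic reticulum (ER) so that they can enter and leave the calnexin and calreticulin folding cycle. Blmh is bleomycin hydrolase, a cysteine peptidase of the cytosol that trims peptides. Nphp4 is nephrocystin-4, a scaffold of the transition zone at the base of the primary cilium, and Nrg2 is neuregulin-2, a ligand of the EGF family that binds the ErbB3 and ErbB4 receptors. T cells are not known for a primary cilium, although their immune synapse uses part of the same transport machinery.

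Of the 5 genes, 3 have promoter windows in the RefSeq table used here (build GRCm38.p6), with 5 windows in all. The stretches before a start of Nphp4 and of Prkcsh are shown because these genes had the largest lymph node ratios. They are printed 5′ to 3′ on the plus strand, and capitals mark the match to a searched motif: TGANTCA in Nphp4, where the free base is an A, and CACGTG, an E-box, in Prkcsh.
Nphp4, chr4:152476456-152476705: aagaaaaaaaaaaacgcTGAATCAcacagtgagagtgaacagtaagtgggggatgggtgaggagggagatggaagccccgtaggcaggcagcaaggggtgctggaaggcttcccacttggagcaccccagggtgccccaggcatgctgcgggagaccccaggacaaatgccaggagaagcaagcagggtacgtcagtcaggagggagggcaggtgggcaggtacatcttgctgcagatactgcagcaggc
Prkcsh, chr9:22002738-22002805: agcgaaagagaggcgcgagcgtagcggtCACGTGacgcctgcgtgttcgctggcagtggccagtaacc

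The Nphp4 stretch ends 1 base before the gene's first annotated base, and the TGANTCA match begins 233 bases before it. In Prkcsh the CACGTG match begins 222 bases before the RefSeq start at 22002988, and only the 68 bases outside annotated exons are printed. Among 32851 windows of 250 bases before a start, on both strands, 6.75% hold TGANTCA and 6.02% hold CACGTG. Each was found in 1 of the 5 windows of the 3 genes. CCAAT and GGGCGG were each found in 2 of the 5 windows, beside 33.8% and 32.7% of all windows. Several of the 5 windows belong to Nphp4. Both windows with CCAAT lie before its starts at 152477738 and 152478142, which are not the printed start at 152476706. TGACGTCA, CCGGAA, the NRF1 palindrome, the heat-shock element and the ER stress element had no match in the 5 windows, which says only that these letters are not there. No motif was found in all 5 windows. GC content was 58.4% in the printed Nphp4 window and 59.2% in the whole Prkcsh window, and the median of all windows was 52.4%.

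On mm10, Tmbim4 (ENSMUSG00000020225.10) lies on the plus strand at chr10:120201590-120224917. Nphp4 (ENSMUSG00000039577.17) lies on the plus strand at chr4:152476706-152563183. Prkcsh (ENSMUSG00000003402.14) lies on the plus strand at chr9:22002806-22014222. Blmh (ENSMUSG00000020840.10) lies on the plus strand at chr11:76924809-76987379, and Nrg2 (ENSMUSG00000060275.13) on the minus strand at chr18:36017652-36197380. The 5 genes are therefore on 5 different chromosomes.

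All values are counts summed over the barcode columns of a library and divided by the library's total (CPM, counts per 1e6). The columns of a table are overlapping sums of the same molecules, so 95% intervals rest on summed counts divided by the number of columns that hold a molecule, called molecule-equivalents, and they cover counting error only. Colon libraries held 6180 molecule-equivalents without light and 39297 with it, and lymph node libraries 11499 and 21214, over 2366 to 6735 genes. With 3 molecule-equivalents as the floor, a gene listed at 0 could have had up to 261 CPM in the control and 141 CPM in the light library of the lymph node, and up to 485 and 76.3 CPM in those of colon. With 1 library per group there is no replicate check, and a gene's level in more cells or more RNA per cell cannot be told apart. A molecule was counted in 79.5 columns without and 39.9 columns with light in the lymph node, and in 60.0 and 39.4 columns in colon, so this property moves with light.

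In lymph node cells Tmbim4 had 4591 CPM (95% interval 3439 to 6004) without light and 9029 CPM (7801 to 10396) with light. In colon cells it was listed at 0 without light and had 3449 CPM (2893 to 4079) with it. It was the 7th most counted gene of 5770 in the lymph node light library, and 13th of 6735 in the colon light library. The light library of the lymph node stood above every other, and the intervals of the other 2 libraries with counts overlapped. In the lymph node the level was 1.97-fold higher with light, a log2 ratio of 0.97 (0.53 to 1.44). The number of distinct molecules recovered was 255 with light and 63.3 without, the control library being the shallower of the pair.

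Prkcsh, the ER trimming subunit, had 1112 CPM (589 to 1909) in untreated and 2904 CPM (2225 to 3724) in light-treated lymph node cells. Its colon values were 0 without light and 1490 CPM (1133 to 1923) with light. The colon light and lymph node control intervals overlapped, and the lymph node light interval lay above both. In the lymph node the light library had 2.61-fold the control's level (log2 1.36, 0.50 to 2.38). These counts came from 13 distinct molecules in the control, in 13 different column patterns, and from 83 molecules in 67 patterns with light, of which no pattern held more than 6. The low number in the control is what widens the interval.

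The cytosolic peptidase Blmh had 824 CPM (386 to 1539) in the control and 1838 CPM (1308 to 2512) in the light library of the lymph node. In colon the pair of values was 0 and 876 CPM (609 to 1222). The lymph node intervals overlapped at their ends. The lymph node ratio was 2.23-fold (log2 1.13, 0.11 to 2.36), on 10 recovered molecules in the control and 44.0 with light.

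For Nphp4, the ciliary scaffold, lymph node cells gave 1147 CPM (614 to 1953) without light and 4828 CPM (3940 to 5855) with it. Colon cells gave 0 without light and 1782 CPM (1390 to 2251) with it, so the lymph node light interval lay above those of all other libraries. It went from place 105 of 3636 genes in the lymph node control to place 8 of 5770 with light. Its lymph node ratio was 4.21-fold (log2 2.04, 1.24 to 3.02), the highest of the 188 genes compared. Nphp4 was selected on this contrast. The control's level rests on 14.2 recovered molecules and the light library's on 123.

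Nrg2, the ErbB ligand, was the gene of the 5 with counts in every library. In lymph node cells it had 795 CPM (366 to 1501) without light and 1706 CPM (1196 to 2359) with it. In colon cells it had 417 CPM (72.2 to 1315) and 532 CPM (329 to 814), respectively, with intervals that overlapped. The colon control value rests on 3 molecules and lies under the floor. The lymph node ratio was 2.15-fold (log2 1.07, 0.03 to 2.33), from 9 molecules in the control and 44 with light, so its lower end is close to 0.

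**Figure D1:**
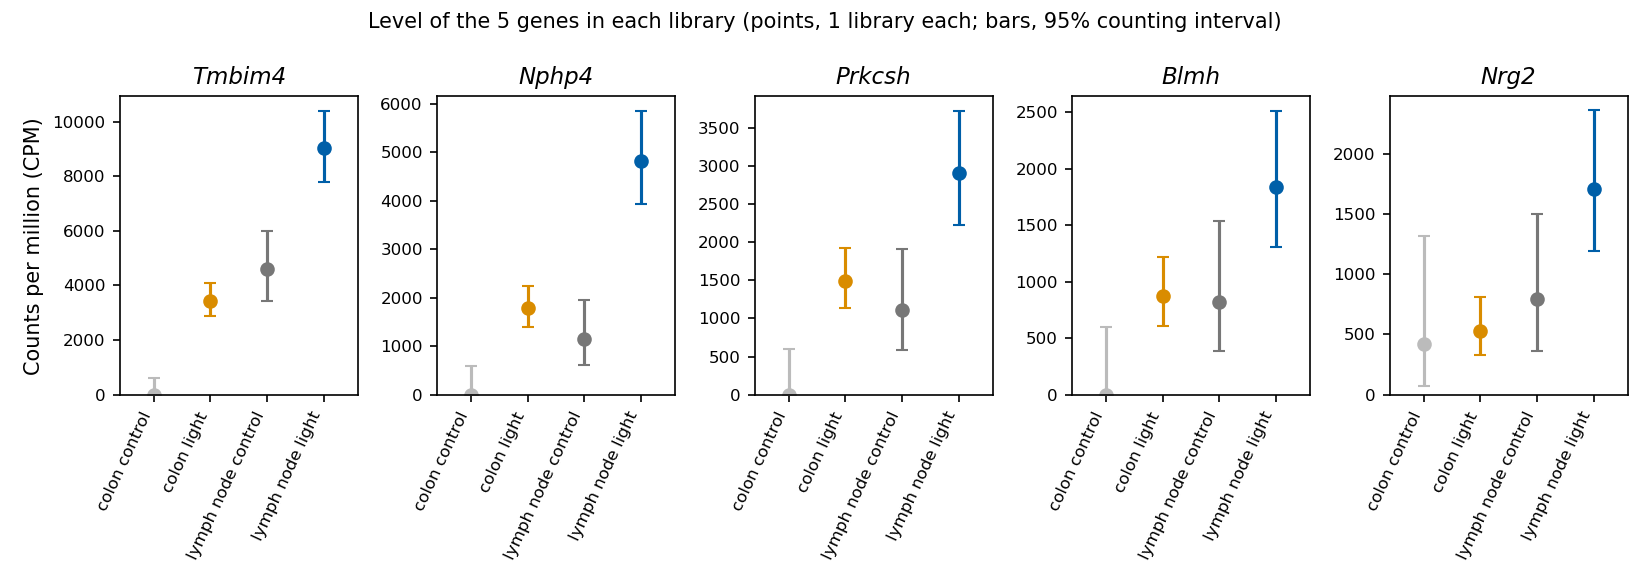
CPM of each of the 5 genes (1 panel each, with its own axis from 0) in the 4 libraries. Points are single libraries and bars are exact 95% counting intervals, which for a gene listed at 0 in the colon control are those of a count of 0 and reach up to 597 CPM, above the floor of 485. In each panel the lymph node light library is the highest, from 1706 CPM for Nrg2 to 9029 CPM for Tmbim4.

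Summed, the 5 genes took 0.847% of the counts of the lymph node control library (8469 CPM) and 2.03% of the lymph node light library (20305 CPM). In the colon light library they took 0.813% (8130 CPM), and in the colon control 0.0417%, all of it Nrg2. In each of the 5 genes the lymph node light library had the highest level. The order of the colon light and lymph node control libraries differed between genes, and for each of the 5 the interval of their log2 ratio included 0, from -0.63 (-1.61 to 0.23) in Nphp4 to 0.56 (-0.72 to 1.76) in Nrg2.

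Beside the genes that could be compared, 4 of the 5 were at least 2-fold higher with light in the lymph node. Of the 188 lymph node genes with 20 or more molecule-equivalents, 5.32% were at least 2-fold higher (10 genes) and 5.85% at least 2-fold lower (11 genes), with a median log2 ratio of -0.16. Since the genes were selected on this contrast, the comparison is not read further. Nrg2 at 1.07 was the last gene above the 2-fold limit and Tmbim4 at 0.97 the first below it. Nphp4, Prkcsh, Blmh, Nrg2 and Tmbim4 took places 1, 4, 9, 10 and 11. Except for Tmbim4, these genes had only 9.14 to 13.2 molecule-equivalents in the control. They passed the filter of 20 only through the light library, where they were selected as high. Their places therefore follow in part from the selection and the filter. With each recovered molecule counted once, in place of the summed columns, the ratios ran from 0.89 to 1.98 and 3 of the 5 were at least 2-fold higher. With only the 16 barcodes named on a deposited sheet, they ran from 0.55 to 2.02 and 1 of the 5 was.

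**Figure D2:**
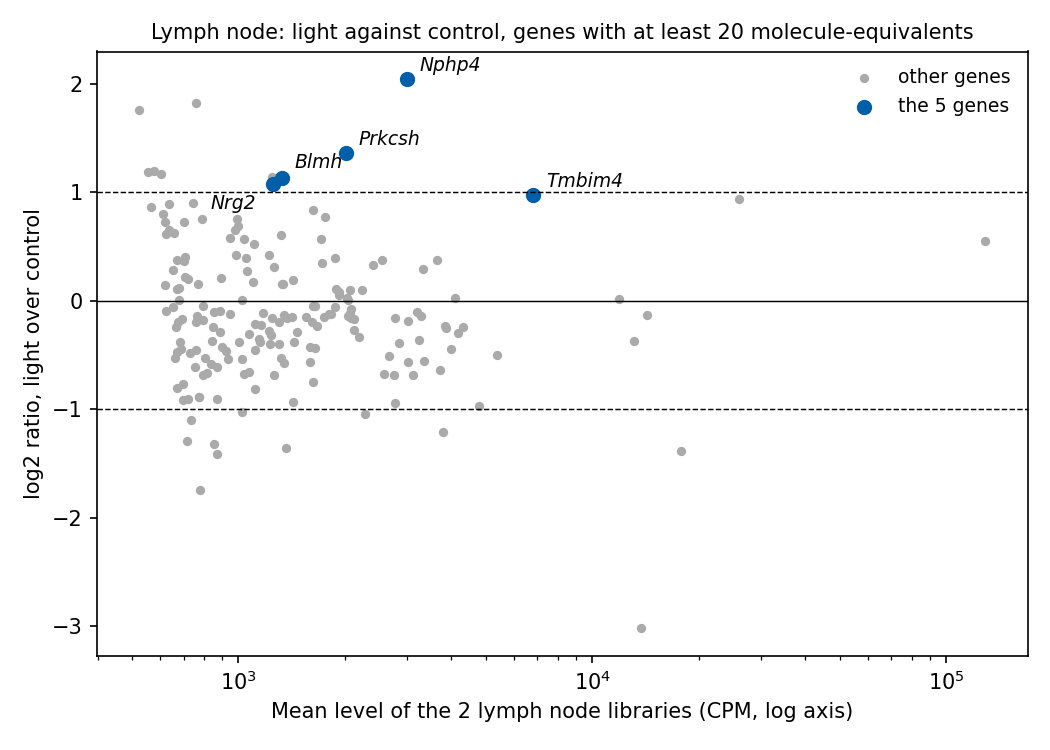
Log2 ratio of light over control in the lymph node (vertical axis) against the mean CPM of the 2 libraries (log axis) for the 188 genes compared, with the 5 genes in blue and dashed lines at 2-fold. Nphp4 is the highest point at 2.04, and Tmbim4, the most counted of the 5, lies at 0.97.

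In colon, 4 of the genes went from a listed 0 in the control to a counted level with light. Against a colon control set to the floor of 3 molecule-equivalents, the colon light library was at least 7.10-fold higher for Tmbim4, 3.67-fold for Nphp4, 3.07-fold for Prkcsh and 1.81-fold for Blmh. The 95% counting intervals, which take in the error of both libraries, reach lower, to log2 ratios of 2.51, 1.54, 1.27 and 0.48 in the same order. Nrg2 had a log2 ratio of 0.34 (-1.50 to 2.99), which does not settle a direction. The colon control library is the shallowest of the 4. The lymph node control was also higher for Tmbim4, at least 9.46-fold against the floor, with an interval that reaches down to a log2 ratio of 2.89. The other 4 genes did not reach 20 molecule-equivalents over these control libraries. The colon control library also shared no more than 5 of its 384 barcodes with any other table, while the other 3 tables shared 373 or 374 with each other. It had counts for 3 of 11 T-cell marker genes, summing to 341 CPM, with 4 further markers left out because their rows repeat between tables. Whether these features of the library have a part in the 0 values was not tested.

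Between the light libraries, each of the 5 genes was lower in colon than in lymph node. Tmbim4 in colon was at 38.2% of its lymph node level (log2 -1.38, -1.72 to -1.06) and Nphp4 at 36.9% (-1.43, -1.90 to -0.99). Blmh was at 47.7% (-1.05, -1.77 to -0.37) and Nrg2 at 31.2% (-1.65, -2.53 to -0.86). Prkcsh was at 51.3% (-0.96, -1.50 to -0.42) and so just missed the 2-fold limit. That makes 4 of 5 at least 2-fold lower and 0 at least 2-fold higher. Blmh missed the limit with median-of-ratios scaling (-0.71), without the ribosomal RNA genes and Gm12374 in the totals (-0.68) and with the barcodes of the sheet (-0.78), each of which left 3 of 5. Among the 304 genes compared, 19.4% were at least 2-fold lower in colon (59 genes) and 13.5% at least 2-fold higher (41 genes), with a median of -0.34, and the lymph node light library enters both this comparison and the one with its control. The balance of all genes turned with the scaling, to 31 lower and 54 higher with median-of-ratios scaling and to 29 lower and 55 higher without the ribosomal RNA genes, so the counts for the 5 genes are not read against it.

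T-cell marker genes, which check the sorted cells, had counts for 11 of 11 in the colon light and both lymph node libraries. Their sum was 9373 CPM in untreated and 8074 CPM in light-treated lymph node cells, and 2875 CPM in light-treated colon cells. In the lymph node the marker sum was thus not higher with light (log2 -0.21, -0.57 to 0.15), while each of the 5 genes was. Between the light libraries the marker sum was also lower in colon (log2 -1.48, -1.85 to -1.14), beside log2 ratios of -1.65 to -0.96 for the 5 genes. Scaled to these markers, a choice made after the sums were seen, the lymph node log2 ratios were 1.19 to 2.26 and all 5 genes were at least 2-fold higher. On the same scale the log2 ratios of colon over lymph node light were 0.10 for Tmbim4 and 0.05 for Nphp4. They were 0.52 for Prkcsh, 0.42 for Blmh and -0.19 for Nrg2. No interval was computed on this scale, so these values do not settle a direction between tissues. The sign of the listed ratio between tissues thus turned for 4 of the 5 genes with this scaling, and the sign in the lymph node did not. Single markers did not move as 1: their log2 ratios ran from -1.05 to 2.03 in the lymph node and from -2.36 to 0.54 between the light libraries.

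**Figure D3:**
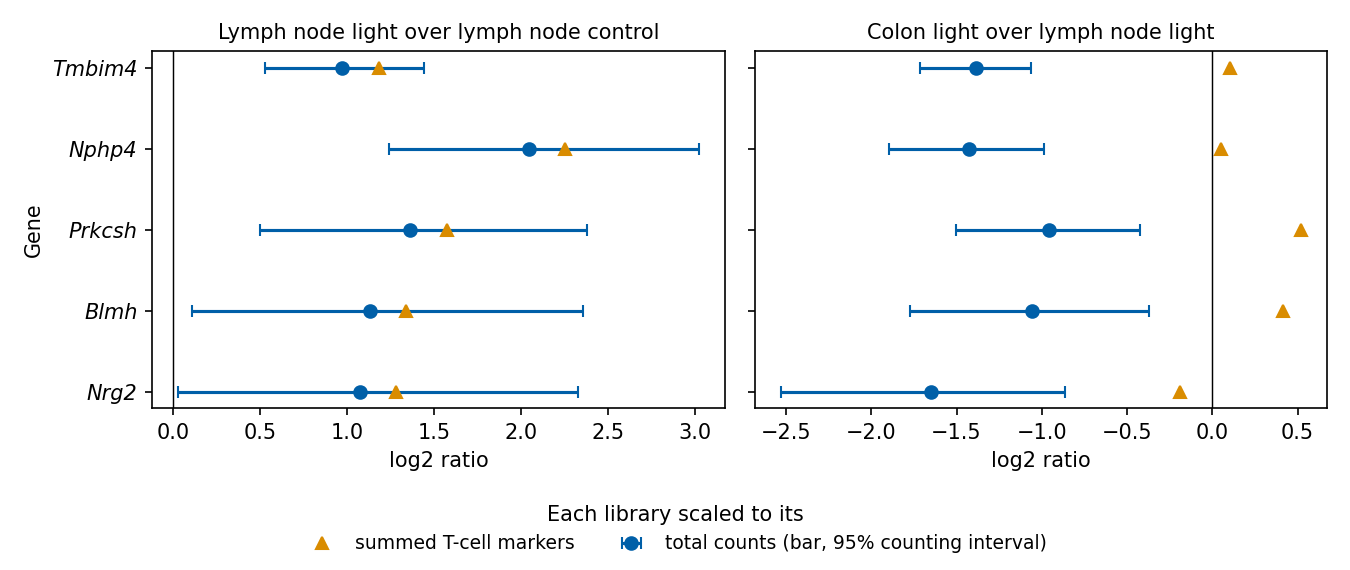
Log2 ratio of each gene in the lymph node (light over control, left) and between the light libraries (colon over lymph node, right). Blue points with bars are scaled to the library total with their 95% counting interval, and orange triangles are scaled to 11 summed T-cell markers. In the left panel both lie above 0 for each gene, and in the right panel the triangles lie near or above 0, from -0.19 to 0.52.

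As a share of the T-cell marker sum, Tmbim4 stood at 49.0% in the lymph node control, 112% with light and 120% in the colon light library. Nphp4 stood at 12.2%, 59.8% and 62.0% in the same order. For Prkcsh the shares were 11.9%, 36.0% and 51.8%, for Blmh 8.79%, 22.8% and 30.5%, and for Nrg2 8.48%, 21.1% and 18.5%. On this scale the lymph node control was the lowest of the 3 libraries for each of the 5 genes.

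Markers of other cells were checked because Nphp4 and Nrg2 are best known outside T cells. All 7 markers of neurons and glia were at 0 in all 4 libraries. Of 8 epithelial markers, which include enterocyte and ciliated-cell genes, 7 were at 0 everywhere, among them Epcam and Krt8. The exception was Foxj1, at 114 CPM in the lymph node light library alone, below the floor of 141. The B-cell markers Cd79a, Cd79b and Ms4a1 were at 0 in every library, and the immunoglobulin genes Igkc and Ighm summed to 20.4 to 355 CPM. Only their lymph node control sum, 324 CPM, was above its library's floor (261 CPM), so no difference with light was measured for them. Fibroblast markers summed to at most 82.2 CPM and were at 0 in both lymph node libraries. Myeloid markers summed to 275 CPM in the lymph node control, with counts for 2 of 6, and to 507 CPM with light, with counts for 4 of 6. In colon they summed to 461 CPM in the control and 2005 CPM with light, with Itgam at 0 throughout. The listed myeloid sum was higher in the light library of each tissue, as Tmbim4, Nphp4, Prkcsh and Blmh were. Its lymph node control value of 275 CPM was just above the floor of 261, and its colon control value of 461 CPM was under the floor of 485. No interval was computed for these sums, so a rise of the myeloid sum is not established. Its part was not tested. Nrg2 was higher with light in the lymph node, while its colon ratio does not settle a direction. Between the light libraries the myeloid sum was higher in colon (2005 against 507 CPM), where the 5 genes had a lower CPM. That lower CPM of the 5 genes depends on the scaling, as given above for the T-cell markers.

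Related genes were then examined from lists that hold relatives of the same family, enzymes of the same class, or genes of the same pathway or structure. CPM here counts molecules primed at a poly(A) stretch and was not divided by transcript length, so levels of different genes are given side by side without a ratio between them. Of the 6 other members of the Tmbim4 family, 4 had counts in some library, and together they had 525 CPM in the lymph node control and 81.4 CPM with light, the latter under the floor. Tmbim6, also known as Bax inhibitor, was at 194 CPM in the control, under its floor of 261, and at 0 with light, so no difference was measured for it. Grina was at 264 CPM, just above that floor, and at 0 with light. The log2 ratio of the family sum without Tmbim4 was -2.31 (-6.37 to -0.10), on few molecules.

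For Prkcsh, the 27 other genes of ER glycan trimming and glycoprotein folding summed to 2615 CPM in the lymph node control and 3207 CPM with light (log2 0.29, -0.34 to 0.96). None of them reached 20 molecule-equivalents over the lymph node libraries. Ganab, the catalytic subunit that Prkcsh binds in glucosidase II, was at 0 in both lymph node libraries and in the colon light library, and at 540 CPM in the colon control, where Prkcsh was at 0. The 2 subunits of the enzyme thus had counts in no library in common. Ganab's value rests on 3.33 molecule-equivalents, just above the floor of 485 CPM, and a listed 0 allows a level up to the floor. Absence of either subunit is therefore not shown. The lectins that read the trimmed glycan were counted at low levels: Calr at 250.2 CPM in the lymph node control and 282 CPM with light, and Canx at 133 and 70.2 CPM. The disulfide isomerase Pdia3 had 238 and 400 CPM. The control values of all 3, and Canx with light, lie under the floor, so they show no difference. Between the light libraries 2 genes of the list could be compared: the chaperone Hspa5 was higher in colon, at 1279 against 404 CPM (log2 1.62, 0.60 to 2.90), opposite to Prkcsh, and Hsp90b1 had a log2 ratio of -0.30 (-1.49 to 0.93).

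The ER translocon is the channel through which glycoproteins enter the ER. Its list also holds genes of the signal recognition particle and of signal peptidase, and all 18 genes had counts in some library. They summed to 2331 CPM in the lymph node control and 2670.2 CPM with light (log2 0.19, -0.49 to 0.92). Sec61b, a channel subunit and the 1 gene of the list that could be compared, had 223 CPM in the control, under the floor, and 827 CPM with light (log2 1.76, 0.00 to 4.55). It was lower in colon than in lymph node between the light libraries (log2 -1.12, -2.26 to -0.07), as Prkcsh was.

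The lists around the other 3 genes were thinly counted. Of 28 other nephrocystin and transition zone genes, 16 had counts in some library, and their sum was 312 CPM in the lymph node control and 222 CPM with light (log2 -0.44, -2.81 to 1.99), where Nphp4 alone had 1147 and 4828 CPM. Of 15 other cytosolic peptidases, 11 had counts, with sums of 338 and 317 CPM (log2 -0.08, -2.11 to 2.17) where Blmh alone had 824 and 1838 CPM. Of 17 other EGF-family ligands, ErbB receptors and shedding proteases, 8 had counts, with sums of 119 and 159 CPM (log2 0.34, -2.83 to 4.91) where Nrg2 alone had 795 and 1706 CPM. Erbb3 was at 0 in every library, and Erbb4 had 12.2 CPM in the colon light library, under its floor, 145 CPM in the colon control, also under the floor, and 0 in both lymph node libraries. In none of these 3 lists did another gene reach 20 molecule-equivalents over the lymph node libraries, so no ratio is given for a single gene of these lists other than Nphp4, Blmh and Nrg2.

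Overlapping transcription was looked at because no source used here says whether counting used the strand. Nphp4 overlaps Kcnab2, on the opposite strand, over 1166 bases or 1.35% of its span. Kcnab2 had 133 CPM in the lymph node control and 108 CPM with light, below the floor in each. Tmbim4 overlaps Irak3 over 541 bases (2.32% of its span), and Nrg2 overlaps the antisense gene 4930471G03Rik over 4327 bases (2.41%). Both of these overlapping genes had no counts in any library. If strand was not used, a read within an overlap could come from either gene, and this was not tested. Blmh contains the small RNA gene Gm22611, also without counts. Oligo-dT can also prime at runs of A within a transcript: the longest run in annotated transcripts was 12 bases in Blmh, 11 in Nrg2, 6 in Tmbim4 and 5 in Nphp4 and Prkcsh. A run of at least 10 was thus present in 2 of the 5 genes, and in 27.0% of all genes matched. Its part in the counts was not tested.

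Likeness was measured as the root mean square difference of the log2 profiles over the 4 libraries, each gene centred on its own mean, among 303 candidate genes. Prkcsh lay nearest to Blmh and Nphp4, each at 0.29, and then to the initiation factor Eif1 at 0.44. Nphp4 lay nearest to Prkcsh at 0.29, Blmh at 0.52 and Tmbim4 at 0.70. The nearest genes to Blmh were Eif1 at 0.23, the peptidase Enpep at 0.25 and Prkcsh at 0.29. Tmbim4 lay nearest to Nphp4 at 0.70, Prkcsh at 0.76 and the chromatin reader Zmynd8 at 0.78. Over the 4 libraries its nearest gene was thus further away than that of each other gene. Without the colon control this did not hold: Tmbim4 lay at 0.028 from Srsf3, and Nphp4 at 0.080 from Atp5c1. Nrg2, which was counted in the colon control, had none of the other 4 among its nearest, which were Snrpe at 0.22, Trip12 at 0.26 and Lyst at 0.29. These likenesses rest on the colon control: over the other 3 libraries, 0 of the 15 nearest genes were the same, and Nrg2 and Tmbim4 lay at 0.11 from each other.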

How the data were processed

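Poly(A) RNA of sorted T cells was primed with oligo-dT probes that add a sample barcode of 7 bases and a molecular identifier, per the labels' protocols. The submitters' processing notes name mm10, STAR 2.5.1a and FastQC. How reads were counted is not stated there or in the labels. The authors deposited whole-number counts, genes by 379 to 384 barcode columns, in 1 table per group. Each lymph node table has a last line without a gene name that holds 50.0% of its counts. It is thus nearly equal to the sum of all named lines, as a line of totals would be, and was left out. A pooled sample without a group has a sheet of 16 barcodes, deposited without a unit of expression. The replicates named on the sheet could not be tied to the tables, so each group was treated as 1 library.

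The 5 genes and all lists were chosen with earlier results of these data known. Rows repeating between tables (Foxp3 in each table, and Cd4 with Cd3d, Cd3e and Cd3g in untreated colon) were left out of totals. Each row was decomposed by non-negative least squares into column patterns that recur across genes, which gave recovered molecules and the mean number of columns that hold a molecule, weighted by that number (84.5 without and 50.4 with light in lymph node, 70.2 and 49.9 in colon), with exact solutions for 92.6% to 96.6% of genes and 39.2% to 62.9% of counts. For rows of the 5 genes without an exact solution, at most 3.44% of the row was missed. The scripts were tested on simulated data. Log2 ratios used a prior of 0.5 molecule-equivalents scaled to depth, genes with at least 20, a 2-fold limit, and Clopper-Pearson intervals at 95%. No p-value was computed, since each group has 1 library. Named genes were the 5 genes, the 3 nearest to each by profile, and list genes that passed the filter, and other list genes were named after their values were seen. A B-cell marker is not reported here. Other settings planned, 12 in all, covered scaling, totals, prior, barcode columns, shared molecules, depth, low-count filter and the profile's libraries. Scaling to the summed T-cell markers was a further setting, added after the data were seen. Gene names were matched to GENCODE M21 for 10136 of 10291 genes. Computation used Python 3.11.15 with scipy 1.17.1, numpy 2.4.6 and pandas 2.3.3, and plots matplotlib 3.10.9.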

Additional observations from a re-analysis of the deposited data

How the results depend on the processing

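In the lymph node, the ratios of the 5 genes stayed above 0 and within their counting intervals under all 9 alternatives, while the number at least 2-fold higher ranged from 1, with the barcodes of the sheet, to 5. Median-of-ratios scaling shifted the median of all genes from -0.16 to 0 and gave 15 genes at least 2-fold higher and 8 lower. Without a filter 2469 were higher and 1688 lower of 6884 genes, and with at least 100 molecule-equivalents 1 and 3 of 25.

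Between the light libraries, Tmbim4 had log2 ratios of -1.04 with median-of-ratios scaling and -1.01 without the ribosomal RNA genes and Gm12374. Scaled to the T-cell markers, a choice made after seeing the data, the ratios were 0.10 for Tmbim4, 0.052 for Nphp4, 0.52 for Prkcsh, 0.42 for Blmh and -0.19 for Nrg2. Genes at least 2-fold lower in colon numbered 31 with median-of-ratios scaling, beside 54 higher, and 29 without the ribosomal RNA genes, beside 55 higher. Those scalings moved the median from -0.34 to 0 and 0.03. Thinning the deeper library left 24 genes higher. Without a filter 2351 were higher and 3038 lower of 8722, and with at least 100 molecule-equivalents 3 and 2 of 42.

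Of the nearest genes by profile, 0 of 15 were shared without the colon control. Of 90 alternative values for the 5 genes, 83 stayed within the counting interval of the reported value, which is wide, and among these Tmbim4 in the lymph node went to 0.55 and Blmh to 0.66 with the barcodes of the sheet. The cause of the other differences was not tested. No paired analysis was possible because each group has 1 library. In the lymph node control 9 to 14.2 recovered molecules lie behind 4 of the 5 genes, which limits their ratios.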
